A study of Mus musculus with 12 samples.

Results

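Neat1, Malat1, Clk1, Clk4, Srsf5, Srsf7, Ddx5 and Pnisr encode nuclear RNAs and proteins of pre-mRNA splicing. They were followed as 8 named genes through 12 mouse pancreas tumours, among 30142 genes measured in all. A gene was given values where the platform table listed exactly 1 symbol for a probe set, and the probe set of highest mean was used. That left 5 of the 8 genes: Neat1, Malat1, Clk1, Clk4 and Srsf5. The probe set of Ddx5 also lists Mir3064, a microRNA, so it has no value of its own. Srsf7 and Pnisr are not listed in the probe table used here and were not analysed here. The genes were named with earlier results of these data in view, and were chosen by their measured levels in the 4 groups, so their differences between groups are given as a description with no test.

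Each tumour was measured on 1 one-colour array, and each array is a separate mouse. The 4 groups of 3 tumours were aSMA depleted, aSMA-TK control, FAP depleted and FAP-TK control, and all 12 mice carried the PKT genotype, a genetic model of pancreatic cancer. TK is a thymidine kinase that makes the cells carrying it sensitive to ganciclovir, here under control of alpha smooth muscle actin (aSMA, gene Acta2) or fibroblast activation protein (FAP, gene Fap), which are found in stromal cells. The labels give ganciclovir at 50 ug per kg for all 12 mice and mark the controls as without depletion, so whether the controls received the drug is not clear. Fap was 1.11 ± 0.37 (SE) log2 units lower in FAP depleted than in FAP-TK control tumours, with no overlap of the groups but an adjusted p of 1 over all genes. Of all genes, 2.5% lay wholly lower in this comparison. Fap was dim, above the 95th percentile of the arrays' neg control probe sets on 0 of 12 arrays. Acta2 was 1.68 ± 1.71 (SE) log2 units higher in the tumours labelled aSMA depleted than in aSMA-TK control tumours (adjusted p = 0.949, overlapping values), which goes against the label, so that group is called by its label throughout. Tumour epithelium markers were above the 95th percentile of the arrays' neg control probe sets on at least 2 of 3 arrays for 8 of 8 genes in every group.

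Values are log2 intensities, quantile normalized between arrays, and a difference is a difference of such values, with the standard error (SE) of a limma model fitted over all genes and 12 arrays. Probe sets differ in sensitivity, so the level of one gene is not set against that of another. In whole tumours, fewer cells of a type and less RNA per cell cannot be told apart. Control signals on aSMA-line arrays were lower than on FAP-line arrays. The median of the 5222 probe sets named neg averaged 4.61 ± 0.16 in the aSMA line and 6.00 ± 0.48 in the FAP line (SD, n = 6 each), with no overlap (exact permutation test, two-sided p = 0.0022, the smallest that 6 against 6 can give). The 23 BkGr control probe sets, a separate set of background probes, averaged 2.83 ± 0.09 and 2.95 ± 0.09 in the same order, with overlap (exact permutation p = 0.0455). What the neg probe sets target is not given in the sources used here. Within lines the neg median differed by 0.07 in the tumours labelled aSMA depleted against aSMA-TK control (exact permutation p = 0.6) and by -0.34 in FAP depleted against FAP-TK control tumours (exact permutation p = 0.5), where 3 against 3 cannot give a p under 0.1.

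Neat1 and Malat1 are long noncoding RNAs that stay in the nucleus and lie next to each other in the genome. Neat1 is the scaffold of paraspeckles, nuclear bodies that form around it and hold RNA-binding proteins. Malat1 lies in nuclear speckles, the bodies that store splicing factors. Clk1 and Clk4 are CDC-like kinases, which phosphorylate SR proteins and so release them from speckles to take part in splicing, and many of their own transcripts keep introns and remain in the nucleus. Srsf5 and Srsf7 encode SR proteins, Ddx5 a DEAD-box RNA helicase, and Pnisr an SR-related protein of the nucleus.

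RefSeq promoter windows, from 250 bases before to 50 after the gene start on build GRCm38.p6, were found for 3 of the 5 measured genes. All 5 measured genes had lower means in the aSMA line, and these 3 are shown because only they had a window. Each window holds the core of a cAMP response element, TGACG or its reverse complement CGTCA, which the capitals mark. The Clk4 window lies at chr11:51262864-51263163 on the + strand, Srsf5 at chr12:80945249-80945548 on the + strand and Malat1 at chr19:5802623-5802922 on the - strand.
Clk4: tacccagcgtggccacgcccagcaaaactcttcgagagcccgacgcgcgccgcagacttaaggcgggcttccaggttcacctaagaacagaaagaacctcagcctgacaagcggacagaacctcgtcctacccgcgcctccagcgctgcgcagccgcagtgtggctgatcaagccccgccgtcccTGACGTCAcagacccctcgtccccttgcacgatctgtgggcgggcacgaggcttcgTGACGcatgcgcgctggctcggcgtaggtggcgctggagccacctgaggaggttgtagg
Srsf5: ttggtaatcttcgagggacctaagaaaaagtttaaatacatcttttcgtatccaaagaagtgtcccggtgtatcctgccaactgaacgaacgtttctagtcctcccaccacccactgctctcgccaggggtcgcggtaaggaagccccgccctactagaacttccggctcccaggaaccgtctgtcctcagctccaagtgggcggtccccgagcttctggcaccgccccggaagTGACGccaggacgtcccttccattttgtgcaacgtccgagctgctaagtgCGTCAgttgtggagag
Malat1: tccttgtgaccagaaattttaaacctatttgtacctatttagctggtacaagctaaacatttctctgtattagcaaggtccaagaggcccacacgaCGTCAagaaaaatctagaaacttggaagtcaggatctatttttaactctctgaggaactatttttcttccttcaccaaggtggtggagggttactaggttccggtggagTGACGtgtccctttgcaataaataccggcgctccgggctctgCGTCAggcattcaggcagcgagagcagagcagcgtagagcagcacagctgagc
Counting both strands, and the full palindrome TGACGTCA once on each, TGACG was matched 3 times in Clk4, 2 times in Srsf5 and 3 times in Malat1, and at least once in 20.9% of all 32544 promoter windows. The full element TGACGTCA, which overlaps the shorter one, was in the Clk4 window and in 1.8% of all windows, but in neither other window. GGGCGG, the letters of a GC box, was matched 1 time in Clk4, 3 times in Srsf5 and not in Malat1, against 35.9% of all windows with a match. TATAAA and CCAAT were in none of the 3 windows, against 13.6% and 37.4% of all windows. The motifs were chosen after the sequences were seen, and a match is a description of letters only.

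Neat1 separated the lines with no overlap of single tumours. It was 11.83, 12.79 and 10.94 in the tumours labelled aSMA depleted and 12.37, 12.30 and 12.51 in aSMA-TK control tumours. It was 15.42, 16.55 and 15.46 in FAP depleted and 18.13, 15.24 and 15.94 in FAP-TK control tumours. The highest of the 6 aSMA-line tumours lay below the lowest of the 6 FAP-line tumours, and within each line the depleted and control values overlapped. The group means were 11.85 ± 0.92, 12.39 ± 0.11, 15.81 ± 0.64 and 16.44 ± 1.51 (SD, n = 3 each), in the order of the groups just given. Neighbouring groups within a line lay within their spread.

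The line difference of Neat1 was -4.00 ± 0.50 (SE). Of all 30142 genes only Snord13, a small nucleolar RNA, had a larger fall, at -4.51 ± 0.97, and its lines overlapped. Neat1 differed by -4.04 ± 0.70 between aSMA-TK control and FAP-TK control tumours, and by -3.96 ± 0.70 between the tumours labelled aSMA depleted and FAP depleted tumours. The number of genes with a larger fall than Neat1 was 1 between the control groups and 46 between the depleted groups. Both differences had the same sign, and the line contrast is their mean. Depletion differences were smaller than their spread. They were -0.54 ± 0.70 in the aSMA line and -0.63 ± 0.70 in the FAP line, and they differed from each other by 0.09 ± 0.99. Without FAP-TK control replicate 1, the highest tumour, the FAP-line difference was 0.22.

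Malat1 was close to the top of the scale on every array. It was 19.42, 19.21 and 18.67 in the tumours labelled aSMA depleted and 18.80, 18.75 and 19.35 in aSMA-TK control tumours. It was 19.76, 19.86 and 19.86 in FAP depleted and 19.86, 19.86 and 19.78 in FAP-TK control tumours. All aSMA-line values lay below all FAP-line values, and the 6 FAP-line values spanned only 19.76 to 19.86. The highest deposited value of any probe set was 19.93, and 0 to 364 non-control probe sets per array were brighter than Malat1. The files carry no saturation flags, so a ceiling on its FAP-line values was not tested. The line difference was -0.80 ± 0.14 (SE), and the depletion differences were 0.13 ± 0.20 in the aSMA line and -0.0045 ± 0.20 in the FAP line.

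**Figure D1:**
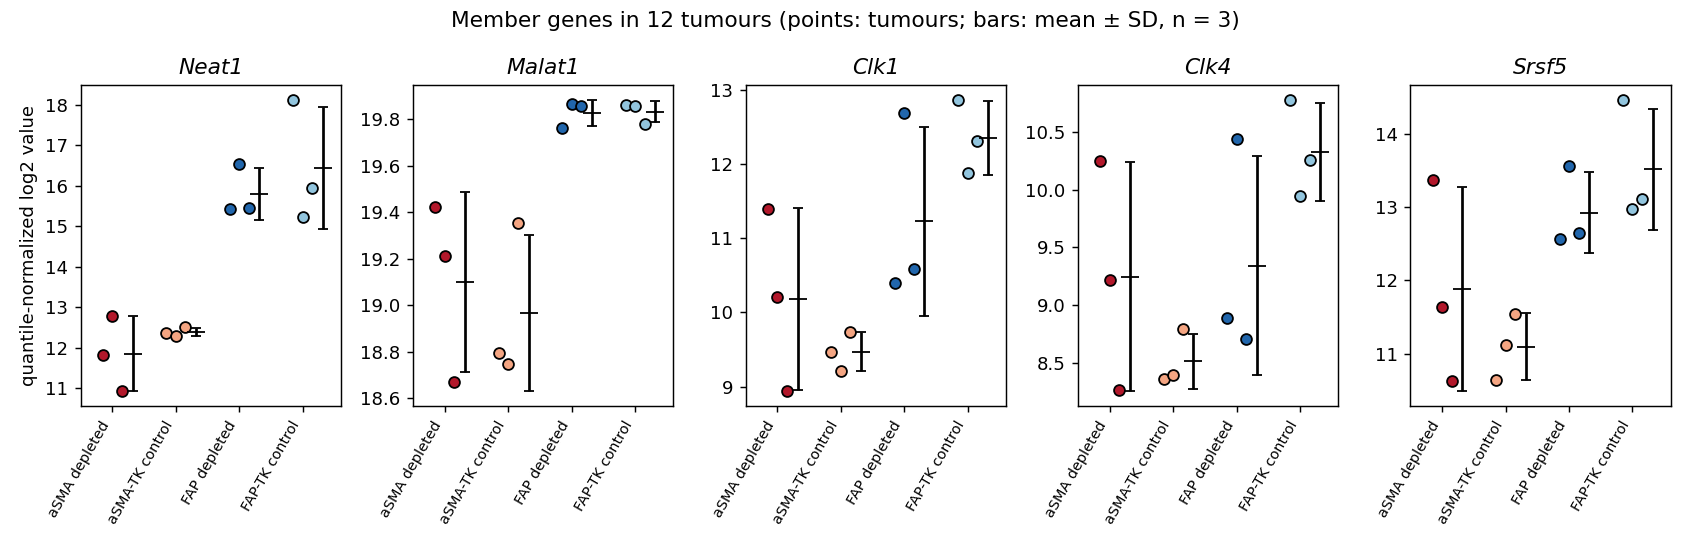
Quantile-normalized log2 value (vertical axis, own scale per gene) of the 5 measured genes in the 4 groups. Points are tumours and bars give mean ± SD (n = 3). Neat1 lay between 10.94 and 12.79 in the aSMA line and between 15.24 and 18.13 in the FAP line, while Clk1, Clk4 and Srsf5 overlapped between lines.

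Clk1, a kinase of SR proteins, was 11.40, 10.21 and 8.93 in the tumours labelled aSMA depleted and 9.46, 9.21 and 9.73 in aSMA-TK control tumours. It was 10.40, 12.69 and 10.59 in FAP depleted and 12.87, 11.88 and 12.31 in FAP-TK control tumours. The 3 aSMA-TK control values lay below the 3 FAP-TK control values, but the tumours labelled aSMA depleted reached into the range of FAP depleted tumours. The line difference was -1.96 ± 0.49 (SE). It was -2.88 ± 0.69 between the 2 control groups and -1.05 ± 0.69 between the 2 depleted groups. The depletion differences were 0.71 ± 0.69 in the aSMA line and -1.13 ± 0.69 in the FAP line, with overlap in both, and they differed from each other by 1.84 ± 0.98.

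Clk4, a second CDC-like kinase, was dim on most arrays. It was 10.25, 9.22 and 8.27 in the tumours labelled aSMA depleted and 8.37, 8.39 and 8.79 in aSMA-TK control tumours. It was 8.89, 10.44 and 8.71 in FAP depleted and 10.78, 9.94 and 10.25 in FAP-TK control tumours. Only the control groups were fully apart, the aSMA-TK control tumours being lower. Clk4 exceeded the 95th percentile of the neg control probe sets on 3 of 12 arrays, 2 of the aSMA line and 1 of the FAP line, and exceeded all BkGr probe sets on 12 of 12. The other 4 measured genes exceeded both on 12 of 12. Its line difference was -0.95 ± 0.38 (SE), with -1.81 ± 0.54 between the control groups and -0.10 ± 0.54 between the depleted groups, which was 0.45 without FAP depleted replicate 2. Its depletion differences were 0.73 ± 0.54 in the aSMA line and -0.98 ± 0.54 in the FAP line.

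Srsf5, a substrate of this kinase family as an SR protein, was 13.37, 11.63 and 10.62 in the tumours labelled aSMA depleted and 10.64, 11.12 and 11.54 in aSMA-TK control tumours. It was 12.57, 13.56 and 12.65 in FAP depleted and 14.47, 12.97 and 13.11 in FAP-TK control tumours. A single tumour labelled aSMA depleted, replicate 1, stood within the FAP-line range, and the other 5 aSMA-line tumours were below that range. The line difference was -1.73 ± 0.47 (SE), with -2.42 ± 0.66 between the control groups and -1.05 ± 0.66 between the depleted groups. The depletion differences were 0.78 ± 0.66 in the aSMA line and -0.59 ± 0.66 in the FAP line, again with overlap.

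Across all genes, 22.5% were called between the lines at an adjusted p under 0.05 (6768 genes, 3995 higher and 2773 lower in the aSMA line), and 4 of the 5 measured members were among them, all lower. Lower calls made up 41.0% of the total, against 95.8% of 18349 calls on the values as deposited. Between the control groups 7.8% of genes were called (3.02% lower) and 3 members, all lower. Between the depleted groups 5.18% were called (2.44% lower) and 1 member, lower. No gene and no member was called by limma in either depletion comparison or in the difference between them (0% of genes), while 1117 genes in the FAP line, 1450 in the aSMA line and 1796 in the difference had an unadjusted p under 0.05. In the depletion comparisons 0 of 5 members had groups that did not overlap, against 5.08% of all genes wholly lower and 7.43% wholly higher in the tumours labelled aSMA depleted and 2.5% wholly lower and 5.6% wholly higher in FAP depleted tumours. The 5 members lay wholly lower in aSMA-TK control than in FAP-TK control tumours, against 13.8% of all genes. Neat1 and Malat1 lay wholly lower also between the depleted groups (14.8% of genes) and between the lines (4.97%). Since these contrasts chose the members, nothing is read from these counts. The line, control and depleted comparisons share tumours, so they are not independent of each other.

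The same tumours were often highest for several of the genes. Replicate 1 of the tumours labelled aSMA depleted was highest in its group for Malat1, Clk1, Clk4 and Srsf5, and replicate 2 for Neat1, while replicate 3 was lowest for all 5. Replicate 3 of aSMA-TK control, replicate 2 of FAP depleted and replicate 1 of FAP-TK control were highest for all 5. With each gene centred on its own mean, the root mean square difference over the 12 arrays was 0.45 log2 units between Clk1 and Srsf5, 0.52 between Clk4 and Srsf5 and 0.54 between Clk1 and Clk4. It was 0.64 between Malat1 and Clk4, 0.81 between Malat1 and Srsf5, 1.31 between Neat1 and Clk1 and 1.79 between Neat1 and Malat1. It grows with a gene's own spread, which is widest for Neat1. Genes on the same array share its RNA preparation and its control signal, which differed between arrays, so these are descriptions.

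Genes of nearest pattern were sought by the same measure among 3926 genes above the neg 95th percentile on at least 6 arrays. For Neat1 they were Gm25704, annotated as a pseudogene, at 0.96, Gm25636, a snoRNA, at 1.13 and Gm26138, an snRNA, at 1.15. For Malat1 they were Ube2d3 and Stxbp2, both at 0.17, and Nmd3 at 0.18, and for Clk1 they were Mir325 at 0.33, Prpf39 at 0.39 and Leng8 at 0.41. The measure is not scaled to a gene's own spread, which is wide for Neat1 and narrow for Malat1, so distances are not compared between members. The measured protein-coding genes nearest to Neat1 and Malat1 on chromosome 19 were Kcnk7, Ehbp1l1, Ltbp3, Frmd8, Slc25a45 and Tigd3, 3 on each side, with no measured gene between Neat1 and Malat1. Their line differences ran from -0.18 to 0.46 and none was called (limma adjusted p from 0.272 to 0.935). These neighbours were dim, at means of 3.56 to 7.61 in the aSMA line, and exceeded the neg 95th percentile on 0 of 12 arrays. Ltbp3 and Slc25a45 exceeded all BkGr probe sets on 12 arrays, Ehbp1l1 on 11 and Frmd8 on 6. Kcnk7 and Tigd3 were below the brightest BkGr probe set on every array. No conclusion about the region is drawn from a missing difference in genes this dim.

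Of 117 genes on 7 lists of nuclear RNA and splicing factors, 96 were measured. Between the lines 75 were lower and 21 higher in the aSMA line, 21 were called lower (21.9% of the measured ones, against 9.2% of all genes) and 3 called higher, with a median difference of -0.36 against 0.06 over all genes. The lists were drawn up with earlier results of these data known. The lists hold no member gene. In the depletion comparisons 63 were higher and 33 lower in the tumours labelled aSMA depleted (median 0.10) and 34 higher and 62 lower in FAP depleted tumours (median -0.10), with none called by limma. Between aSMA-TK control and FAP-TK control tumours 77 were lower and 19 higher, with 9 called lower (9.38%, against 3.02% of all genes) and 1 higher (median -0.46). Between the depleted groups 74 were lower and 22 higher, with 3 called lower (3.12%, against 2.44% of all genes; median -0.29).

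Kinases that act on SR proteins or on the spliceosome had 9 of 13 lower and 3 called lower. These were Srpk2, an SR protein kinase (-0.81 ± 0.20 SE, limma adjusted p = 0.0209), Prpf4b, a kinase of the spliceosome (-1.08 ± 0.32, adjusted p = 0.0392) and Cdk11b (-0.80 ± 0.25, adjusted p = 0.0445). The closest relatives of the members, Clk2 at -0.66 ± 0.23 (adjusted p = 0.0629) and Clk3 at -0.39 ± 0.13 (adjusted p = 0.0515), did not pass. Among other SR proteins and TRA2 proteins, 9 of 11 were lower and 5 called lower. Srsf6 fell by 1.12 on the log2 scale (SE 0.13, adjusted p = 0.00105) with no overlap between lines, and was also called between the control groups (-1.40, adjusted p = 0.00653) and between the depleted groups (-0.85, adjusted p = 0.0336). Srsf10 fell by 0.83 (adjusted p = 0.0176), Srsf3 by 0.97 (adjusted p = 0.0181) and Tra2b by 0.48 (adjusted p = 0.0355).

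Nuclear speckle and SR-related proteins were lower in 25 of 25 measured genes, with 5 called lower and a median of -0.77, the lowest median of the 7 lists. Ccnl2, a cyclin found in speckles, fell by 1.38 (SE 0.33, limma adjusted p = 0.0185), Rbm25 by 1.27 (adjusted p = 0.0353), Nktr by 1.41 with no overlap (adjusted p = 0.0372) and Fnbp4 by 1.18 (adjusted p = 0.0439). Of 13 paraspeckle proteins, 10 were lower, 3 called lower and 2 called higher, so the list of Neat1's partners did not move one way. Ewsr1 fell by 1.23 (adjusted p = 0.0178), Hnrnpk by 0.80 (adjusted p = 0.0211) and Dazap1 by 0.28 (adjusted p = 0.0363). Nono, a core paraspeckle protein, was higher by 0.71 ± 0.21 (adjusted p = 0.0394) and Nudt21 by 0.38 ± 0.08 (adjusted p = 0.0100), although Nudt21 was lower by -0.37 on the values as deposited.

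Of 15 DEAD-box RNA helicases, 9 were lower, with Ddx42 called lower (-0.86, limma adjusted p = 0.0394) and Ddx18, a nucleolar helicase, called higher (0.65, adjusted p = 0.0297, but -0.12 on the values as deposited). Ddx17, the closest relative of Ddx5, was at -1.01 ± 0.43 (adjusted p = 0.113). The hnRNP proteins, which package nascent RNA, had 9 of 13 lower and 3 called. Hnrnpu fell by 1.65 (SE 0.25, adjusted p = 0.00277) and Hnrnpl by 1.00 (SE 0.16, adjusted p = 0.00334), both with no overlap between lines, and Hnrnpa2b1 by 0.85 (adjusted p = 0.0368). Hnrnpu and Hnrnpl were also called between the control groups (adjusted p = 0.0216 and 0.0313) and between the depleted groups (adjusted p = 0.0372 and 0.0336). Of 6 other long noncoding RNAs, 4 were lower and only Pvt1 was called (-0.52, adjusted p = 0.0310), while Tug1, which is also nuclear in part, was at -0.05 ± 0.15 (adjusted p = 0.85). Pvt1 was dim, above the neg 95th percentile on 0 of 12 arrays and above all BkGr probe sets on 3. Among other list genes named as called, Srpk2 and Dazap1 exceeded the neg 95th percentile on 0 of 12 arrays. Nktr exceeded it on 1, and Hnrnpl and Ddx18 on 2, while these genes exceeded all BkGr probe sets on 12.

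**Figure D2:**
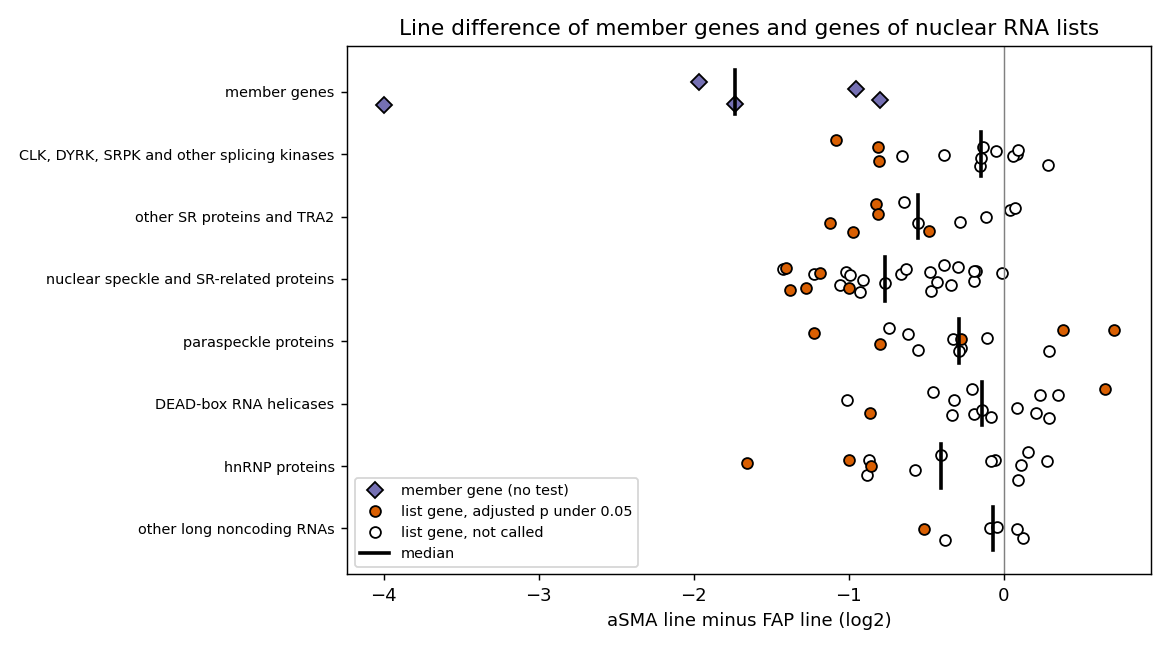
Line difference (aSMA line minus FAP line, log2, horizontal axis) of the 5 measured member genes, drawn as diamonds with no test, and of the 96 measured genes of the 7 lists, drawn as circles and filled where called at an adjusted p under 0.05. Vertical strokes are list medians. Neat1 at -4.00 lies beyond every list gene, and all 25 genes of the speckle list lie below 0.

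Of the list genes just named, 10 were also called between the control groups. In aSMA-TK control against FAP-TK control tumours the SR proteins Srsf3 (-1.56, limma adjusted p = 0.0265), Srsf10 (-1.08, adjusted p = 0.0462) and Tra2b (-0.76, adjusted p = 0.0481) fell with no overlap. So did Ccnl2 (-1.95, adjusted p = 0.0392), Hnrnpk (-1.10, adjusted p = 0.0453) and Ewsr1 (-1.56, adjusted p = 0.0495). Nudt21, a cleavage factor that acts in 3-prime end processing, was higher by 0.54 (adjusted p = 0.0246), again with no overlap.

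In the depletion comparisons the gene of smallest p on each list was not called. Srsf6 was 0.55 ± 0.19 (SE) log2 units lower in FAP depleted than in FAP-TK control tumours with no overlap (limma adjusted p = 1), and Ddx27 was 0.44 ± 0.17 higher (adjusted p = 1). Dyrk3 at 0.64 ± 0.32, Ccnl2 at -0.90 ± 0.47, Nudt21 at 0.23 ± 0.11, Hnrnpa2b1 at -0.60 ± 0.35, Kcnq1ot1 at -0.47 ± 0.26 and Atf3 at 0.68 ± 0.46 also had an adjusted p of 1. In the aSMA line Ddx3x was at 0.76 ± 0.39 and Srrm1 at 0.87 ± 0.62 (adjusted p = 0.944 each). Dyrk1b at 0.42 ± 0.24, Tra2a at -0.55 ± 0.35, Hnrnpk at 0.49 ± 0.28, Hnrnpul1 at 0.62 ± 0.41 and Miat at -0.10 ± 0.07 had the same adjusted p. Dusp1, an immediate early gene, was at 2.66 ± 1.44 (adjusted p = 0.944). Of the 8 measured immediate early genes, 5 were higher in the tumours labelled aSMA depleted (median 0.27) and 8 in FAP depleted tumours (median 0.65), and between the lines 6 were lower (median -0.45), with none called by limma in these comparisons. Their part in the member differences was not tested.

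Markers of other cell types also differed between the lines. Acinar markers were higher in the aSMA line for 7 of 7 genes (median 1.77, 1 called) and islet markers for 5 of 5 (median 1.68, 3 called). Of all genes, 13.3% were called higher in this comparison. Among them Ins2, an insulin gene, differed by 2.25 ± 0.38 (limma adjusted p = 0.00473), and Cela2a, a pancreatic elastase, by 2.15 ± 0.68 (adjusted p = 0.048). Both were dim, above the neg 95th percentile on 1 of 12 arrays each and above all BkGr probe sets on 7 and 4. Sst and Chga, the other islet genes called, exceeded the neg 95th percentile on 0 and 1 arrays and all BkGr probe sets on 8 and 9. The list mean of each tumour ran from 6.43 to 14.43 for acinar markers in the tumours labelled aSMA depleted, from 10.21 to 12.76 in aSMA-TK control, from 9.41 to 11.72 in FAP depleted and from 7.79 to 10.03 in FAP-TK control tumours. Islet markers ran from 6.14 to 8.91, 6.08 to 7.53, 5.33 to 6.23 and 4.66 to 6.35 in the same order of groups. Tumour epithelium markers were higher for 7 of 8 genes (median 0.31), with Krt7 (0.91, adjusted p = 0.0127) and Sox9 (1.54, adjusted p = 0.0255) called, and for 8 of 8 in aSMA-TK control against FAP-TK control tumours (median 1.04). Fibroblast markers had a line median of 0.05, smooth muscle 0.60, endothelium 0.80 and leukocytes 0.51. The part of these cells in the member differences was not tested.

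The members were also set against the neg control probe sets of the same arrays. In the aSMA line the relation passed an adjusted p of 0.05 by Pearson's r for 4 of the 5 measured members. None passed by rank. The share of all genes with such a relation was not computed, so nothing about the members is read from this count. Whether Neat1 differs from the other 4 was not tested. Over the 6 aSMA-line arrays, Pearson's r between the neg median and the member's value was 0.87 for Malat1 (exact permutation p = 0.0042, adjusted over the 5 relations computed 0.0208, Spearman's rho 0.94, adjusted 0.0833). It was 0.85 for Clk1 (rho 0.89), 0.85 for Clk4 (rho 0.77) and 0.87 for Srsf5 (rho 0.77), with an adjusted exact permutation p of 0.0486 each for r and of 0.0833, 0.1285 and 0.1285 for rho. For Neat1 r was 0.04 (adjusted exact permutation p = 0.938) and rho 0.26. Without the 2 arrays farthest from the median neg level, r was 0.71 for Malat1, 0.75 for Clk1, 0.64 for Clk4, 0.41 for Neat1 and 0.27 for Srsf5, whose relation rests on those arrays. On member values as deposited, r was 0.66 for Malat1, 0.86 for Clk1, 0.86 for Clk4, 0.90 for Srsf5 and -0.13 for Neat1, with adjusted exact permutation p from 0.0602 to 0.829. With the BkGr probe sets in place of neg, r was -0.52 for Malat1, -0.67 for Clk1, -0.70 for Clk4, -0.62 for Srsf5 and 0.41 for Neat1, with adjusted exact permutation p from 0.338 to 0.386.

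The FAP-line arrays fall into 2 clusters of 3 by neg median, near 6.4 and near 5.5, so no correlation over them is given. The upper cluster holds FAP depleted replicate 2 and FAP-TK control replicates 1 and 3, and the lower one FAP depleted replicates 1 and 3 and FAP-TK control replicate 2. Neat1 was 16.55, 18.13 and 15.94 in the upper cluster and 15.42, 15.46 and 15.24 in the lower. Clk1 was 12.69, 12.87 and 12.31 in the upper and 10.40, 10.59 and 11.88 in the lower. Neat1, Clk1, Clk4 and Srsf5 were each higher on all 3 upper arrays than on all 3 lower arrays, while Malat1 overlapped. The share of all genes that separate these clusters was not computed, so nothing about the members is read from this. Clk4 was 10.44, 10.78 and 10.25 in the upper and 8.89, 8.71 and 9.94 in the lower, and Srsf5 was 13.56, 14.47 and 13.11 in the upper and 12.57, 12.65 and 12.97 in the lower.

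**Figure D3:**
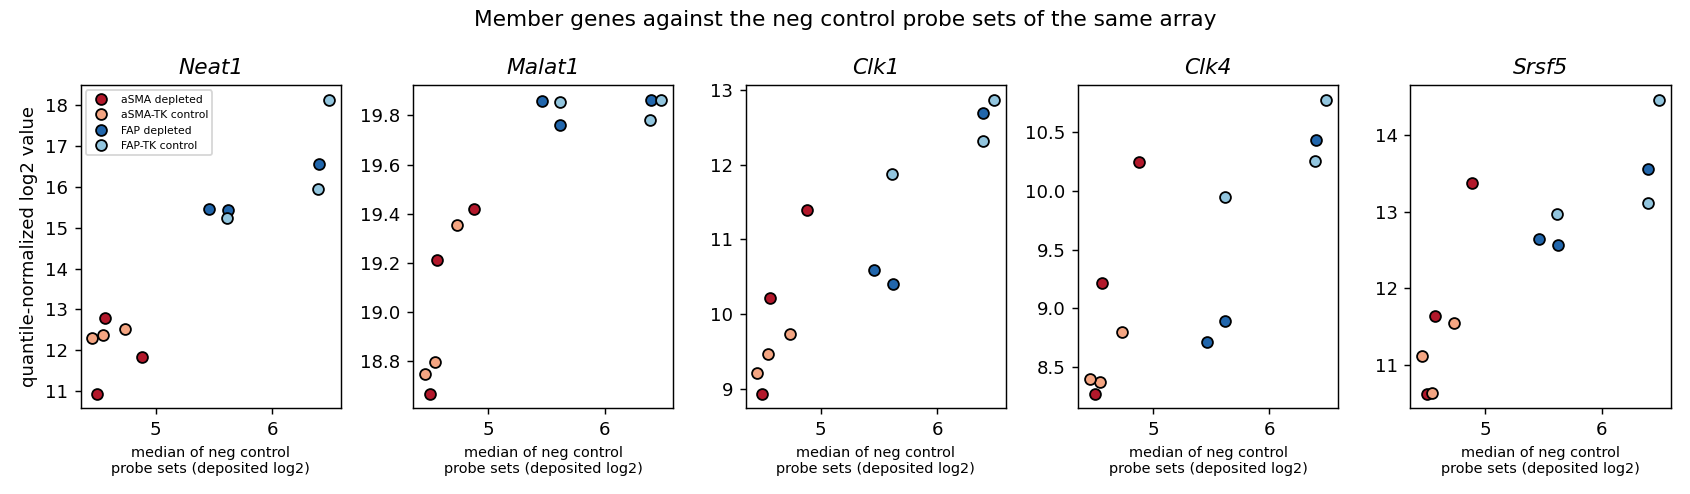
Quantile-normalized log2 value of each measured member (vertical axis, own scale) against the median of the neg control probe sets of the same array (horizontal axis, deposited log2). Points are the 12 arrays, coloured by group. The aSMA-line arrays lie at 4.46 to 4.88 and the FAP-line arrays at 5.46 to 6.49, so line and neg level do not overlap, and Neat1 has an r of 0.04 within the aSMA line.

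Line and neg control level cannot be told apart in this design, so the line differences were given with and without terms for control probe signal. What the neg median reports is not known here, so a change under its covariate is not read as a correction. With the neg median as a covariate, the line difference was -1.71 for Neat1 and -0.50 for Malat1, and 0.84 for Clk1, 1.26 for Clk4 and 0.42 for Srsf5. With the BkGr median as a covariate it was -4.04, -0.91, -2.15, -1.09 and -2.04 for Neat1, Malat1, Clk1, Clk4 and Srsf5. Both covariates were added after the data were seen. Leaving out the 3 arrays of the upper neg cluster, which have the lowest separation of positive from neg control probe sets, gave -3.22, -0.80, -1.36, -0.49 and -1.30 in that order of genes, and the values as deposited gave -4.34, -0.38, -2.58, -1.67 and -2.20 around an all-gene median of -0.43. Median centring gave -3.85 for Neat1 and 0.11 for Malat1. Neat1 thus kept its direction under each of these settings, Malat1 turned only with median centring, and Clk1, Clk4 and Srsf5 turned only with the neg covariate. Of the 22 list genes named as called, 3 remained called without the 3 arrays and 3 with that separation as a covariate. With the BkGr covariate 5 remained called, and with the neg covariate 0, under which 12 changed sign. With dim genes left out, 2 remained called and 14 were no longer called, while the rest were themselves left out. Among all 96 list genes, 77 were lower with the BkGr covariate (median -0.52, 5 called lower) and 74 without the 3 arrays (median -0.29, 6 called lower), against 75 and -0.36 without either change. Of all 30142 genes, 2160 were called with the BkGr covariate (40.2% of them lower) and 2653 without the 3 arrays (61.9% of them lower). The neg covariate left 38 lower and 58 higher (median 0.17) with none called by limma, when 19 of 30142 genes were called. The separation covariate left 74 lower (median -0.23), with 6 called lower, when 2867 of 30142 genes were called (56.9% of them lower). The share of all genes called lower was not computed for these settings. No excess of lower calls on the lists is therefore read from them. With dim genes left out, 61 list genes were kept, 47 lower and 14 higher (median -0.55). Of these 2 were called lower, against 21 with dim genes kept, when 133 of all genes kept were called (45.1% of them lower).

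**Figure D4:**
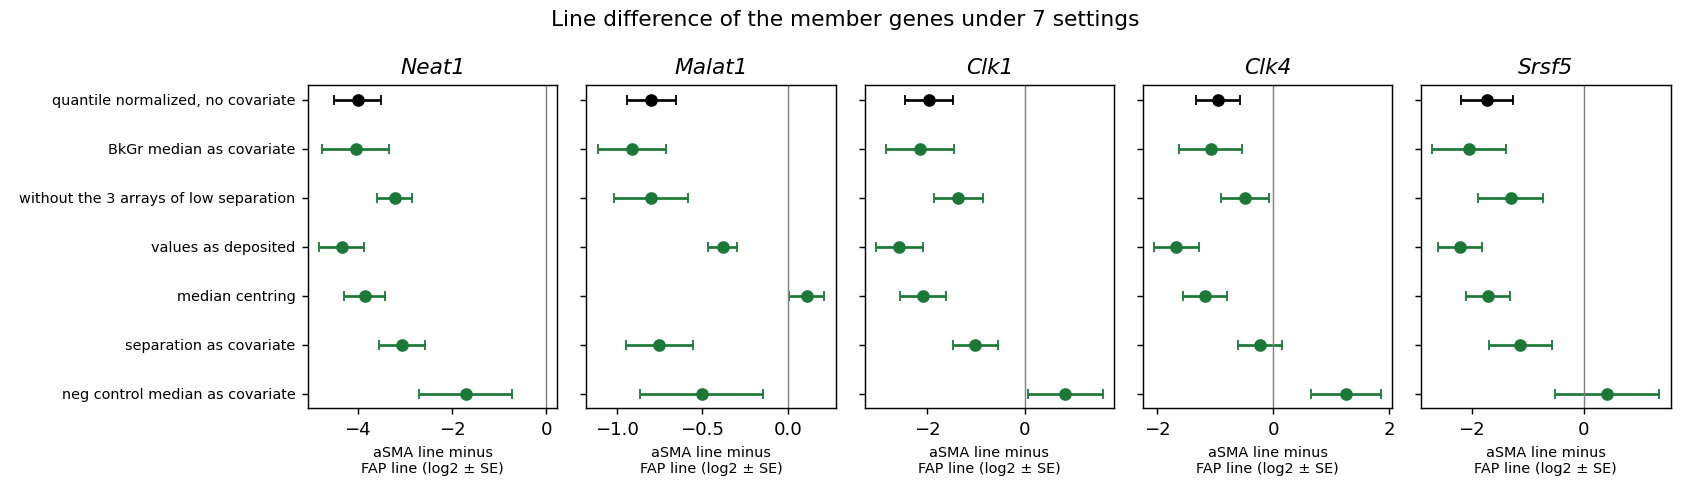
Line difference (aSMA line minus FAP line, log2, horizontal axis, own scale per gene) of the 5 measured members under 7 settings. Points are differences and bars ± SE of the fit, with no test. Neat1 runs from -4.34 to -1.71, while Clk1, Clk4 and Srsf5 lie above 0 with the neg control median as a covariate.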

How the data were processed

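Per the labels, RNA was extracted with Trizol and labelled with biotin by a kit for Illumina arrays, while the probe set identifiers have the form of an Affymetrix whole-transcript array. The authors' deposited table holds log2 values for 72688 probe sets on 12 arrays, running from 1.64 to 19.93; the log2 scale was read from the values. Per the submitters' processing notes limma was used. The sources used here do not give its version, nor how background was corrected, probe sets summarized or arrays normalized, nor a genome build. The number of arrays limits the precision.

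After 6732 control probe sets were left out, 65956 probe sets were quantile normalized, since array medians differed. Of 32750 listed probe sets, 30604 had 1 symbol and 2146 several. Symbols were updated through the RefSeq table of GRCm38.p6, and the probe set of highest mean was kept for 355 genes with more than 1, leaving 30142 genes. A linear model of 4 group means was fitted to the 12 arrays in limma 3.58.1 (R 4.3.3, statmod 1.5.0), with two-sided moderated tests adjusted by Benjamini-Hochberg over all genes and called at an adjusted p under 0.05. The model fit was tested on simulated gene values with independent noise. That simulation did not cover normalization, the choice of probe sets or a difference in control signal between lines.

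The members and lists were chosen with earlier results of these data known. List genes were named where called, up to 4 per direction by smallest p, and otherwise the list's gene of smallest p; Clk2, Clk3, Ddx17, Tug1 and Snord13 fall outside this rule and were named after their values were seen. Relations to the control probe sets were computed for 5 members in the aSMA line in place of 16, because 3 members have no value and the FAP-line arrays form clusters. Alternatives were other normalizations, removal of dim genes, a linear offset of 50, averaged probe sets, other variance models and array weights. Others were covariates of control probe signal, leaving out the 3 arrays of low separation, only the groups compared, a threshold of 0.1 and each array left out.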

Additional observations from a re-analysis of the deposited data

How the results depend on the processing

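Of 710 member differences recomputed under alternatives, 684 moved by less than 1 SD, 21 by more, and 5 called ones changed sign: with median centring Malat1 was at 0.11 between lines and 0.054 between controls, and with the neg control median as covariate Clk1 was at 0.84 between lines and 0.33 between controls and Srsf5 at 0.42 between lines. Sign changes of differences that were not called are counted with those that moved by less or more than 1 SD. With the neg covariate these included Clk4 between lines (1.26), Clk4 and Srsf5 between controls (0.73 and 0.05), and Clk1, Clk4 and Srsf5 between depleted groups (1.34, 1.78 and 0.78). That covariate also turned the line difference of Srpk2 (0.32), Prpf4b (0.98), Cdk11b (0.40), Srsf10 (0.29), Tra2b (0.16), Ccnl2 (0.51), Rbm25 (0.85), Nktr (1.22), Fnbp4 (1.11), Ewsr1 (0.32), Ddx42 (0.51) and Ddx18 (-0.39); on values as deposited Nudt21 was at -0.37 and Ddx18 at -0.12. The 6768 genes called between lines became 18349 as deposited, 10570 with median centring, 133 without dim genes, 10574 with array weights, 2867 with the separation covariate (56.9% lower), 2653 without the 3 arrays of low separation (61.9% lower), 19 with the neg covariate (84.2% lower), 2160 with the BkGr covariate, and 4665 to 7909 with each array left out. Between controls, 2350 became 12443 (96.6% lower), 5769, 0, 6658, 1012 (55.3% lower), 357 (76.8% lower) and 0 for the first 7 of these settings, 1543 with an offset of 50, 212 with only these groups, 5104 at a threshold of 0.1, and 508 (without aSMA-TK control replicate 2) to 3130 with each array left out, among them 657 and 1278 without aSMA-TK control replicates 1 and 3, 855 and 603 without FAP-TK control replicates 1 and 3 and 1399 without FAP depleted replicate 1. Between depleted groups, 1562 became 14287 as deposited (97.7% lower), 3391 with median centring (35.1% lower), 18 without dim genes, 4502 with array weights, 634 without the 3 arrays, 22 with the neg covariate (86.4% lower), 0 with the BkGr covariate, 1 with only these groups, 3501 at 0.1, and 374 (without FAP depleted replicate 1) to 1874 with each array left out, among them 481 and 496 without FAP depleted replicates 2 and 3, 960, 513 and 489 without replicates 1, 2 and 3 labelled aSMA depleted, and 1039 without FAP-TK control replicate 3. The 0 calls of the depletion comparisons became 13 in the FAP line without the 3 arrays, 0 to 4 with each array left out (4 without FAP depleted replicate 2), 0 to 16 in the aSMA line (16 without replicate 3 labelled aSMA depleted, 1 without aSMA-TK control replicate 1), and for the difference between effects 1 with the neg covariate and 0 to 1 with each array left out. The 4 relations past the threshold became 0 with members as deposited, where r for those 4 genes was 0.66 to 0.90, and 0 with BkGr probe sets, where it was -0.70 to -0.52. The neg median difference between lines ran from -1.49 to -1.28 with each array left out. The cause of these shifts was not tested. No paired analysis was possible because the labels' descriptions number the mice 1 to 12 through all groups, so no number is shared between groups, and the replicate numbers used here only name tumours within a group.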
